A study of Mus musculus with 58 samples.

Results

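Hematopoietic stem cells (HSCs) of aged male C57BL/6 mice were infected with a lentivirus that carried GFP and a short hairpin RNA against Kdr, and were recovered from transplant recipients for RNA-seq. The 4 libraries of Kdr knockdown cells (GFP_Kdr_shRNA) and the 2 libraries of cells with a scrambled hairpin (GFP_Scramble) were chosen by their labels and make up 6 of the 34 RNA libraries and of the 58 samples of the series. The series asks how caloric restriction (CR) changes HSCs of male mice. Its other RNA libraries hold HSCs taken directly from young or old mice fed ad libitum (YAL, OAL), restricted mice (YCR, OCR) and refed mice, and transplanted HSCs that received the Kdr hairpin with either of 2 Bmpr1a hairpins (double knockdown, 4 libraries) or the matching scrambles (2 libraries). All 6 libraries came from aged, ad libitum fed donors carrying CD45.2. Their cells were cultured overnight with virus and injected, unsorted for GFP, into lethally irradiated young female CD45.1 recipients together with CD45.1 myeloid progenitors. GFP-positive, CD45.2-positive cells were later sorted from bone marrow as lineage-negative Sca-1+ Kit+ CD48- CD150+ cells. One hairpin (shRNA5) was used, so an effect of that sequence on other transcripts and an effect of Kdr loss cannot be told apart here. The labels do not say that each library came from its own recipient, so p-values measure only the spread between libraries.

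KDR (VEGFR2) is the main signalling receptor tyrosine kinase for the vascular endothelial growth factor VEGF-A. It works with the related receptors FLT1 and FLT4 and with the neuropilins NRP1 and NRP2, which bind VEGF ligands and lack a kinase of their own. KDR is best known from endothelium, where it drives growth and survival of vessels. It marks the embryonic precursors of blood and has been linked to HSC survival, and Kdr belongs to a published aging signature of genes that rise in old HSCs.

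Total counts per library lay between 37490254 and 44780217, with 23453 to 25447 genes detected. GFP_Kdr_shRNA replicate 2 stood apart from the other libraries. On the first principal component of the 500 most variable genes, with 39% of the variance, it lay at 50.3 and the other 5 between -18.1 and -4.33. Its neutrophil granule genes and myeloid genes were also the highest or close to it, as given below. In every library the Y-linked genes Ddx3y, Eif2s3y, Kdm5d and Uty summed to 374 to 424 CPM, the unit that scales a gene's counts to the total of its library. Xist, which female cells express, lay between 2.50 and 8.26 CPM in these libraries and between 1.26 and 8.37 CPM in the YAL, OAL, YCR and OCR libraries of male mice. Kit and Ptprc were high in all 6 libraries, at 1381 to 1666 and 357 to 388 CPM.

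Kdr itself was lower in every knockdown library. It stood at 6.05 and 6.07 CPM in the scramble libraries and at 1.93, 2.22, 3.28 and 2.03 CPM in the knockdown libraries, so the groups did not overlap. The log2 fold change was -1.35 (SE 0.251, unadjusted p = 0.00048 and adjusted p = 0.247 with edgeR's quasi-likelihood test). The call turned with the setting: the adjusted p of Kdr was 0.00276 with DESeq2 and 0.0484 in edgeR with no filter on low counts, and lay between 0.157 and 0.993 under the other alternatives. With 15 ways to split 6 libraries the exact two-sided permutation test gave p = 0.0667, which is the smallest it can give. Here and below, fewer cells with a transcript and less transcript per cell cannot be told apart. Kdr was also lower in the double knockdown against its own scramble (log2 fold change -1.86, edgeR unadjusted p = 0.00114) and in OCR against OAL (-1.14, adjusted p = 7.8e-07). The transplanted control cells had a low starting level of Kdr. Without between-library scaling, OAL libraries held 41.0 to 45.8 CPM, OCR libraries 13.7 to 26.9 CPM and YAL libraries 19.4 to 32.1 CPM, against 6.08 and 6.11 CPM in GFP_Scramble and 3.95 to 4.64 CPM in the scrambles of the double knockdown. RNA preparation and sequencer differed between native and transplanted cells, so these levels were set side by side without a test.

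**Figure D1:**
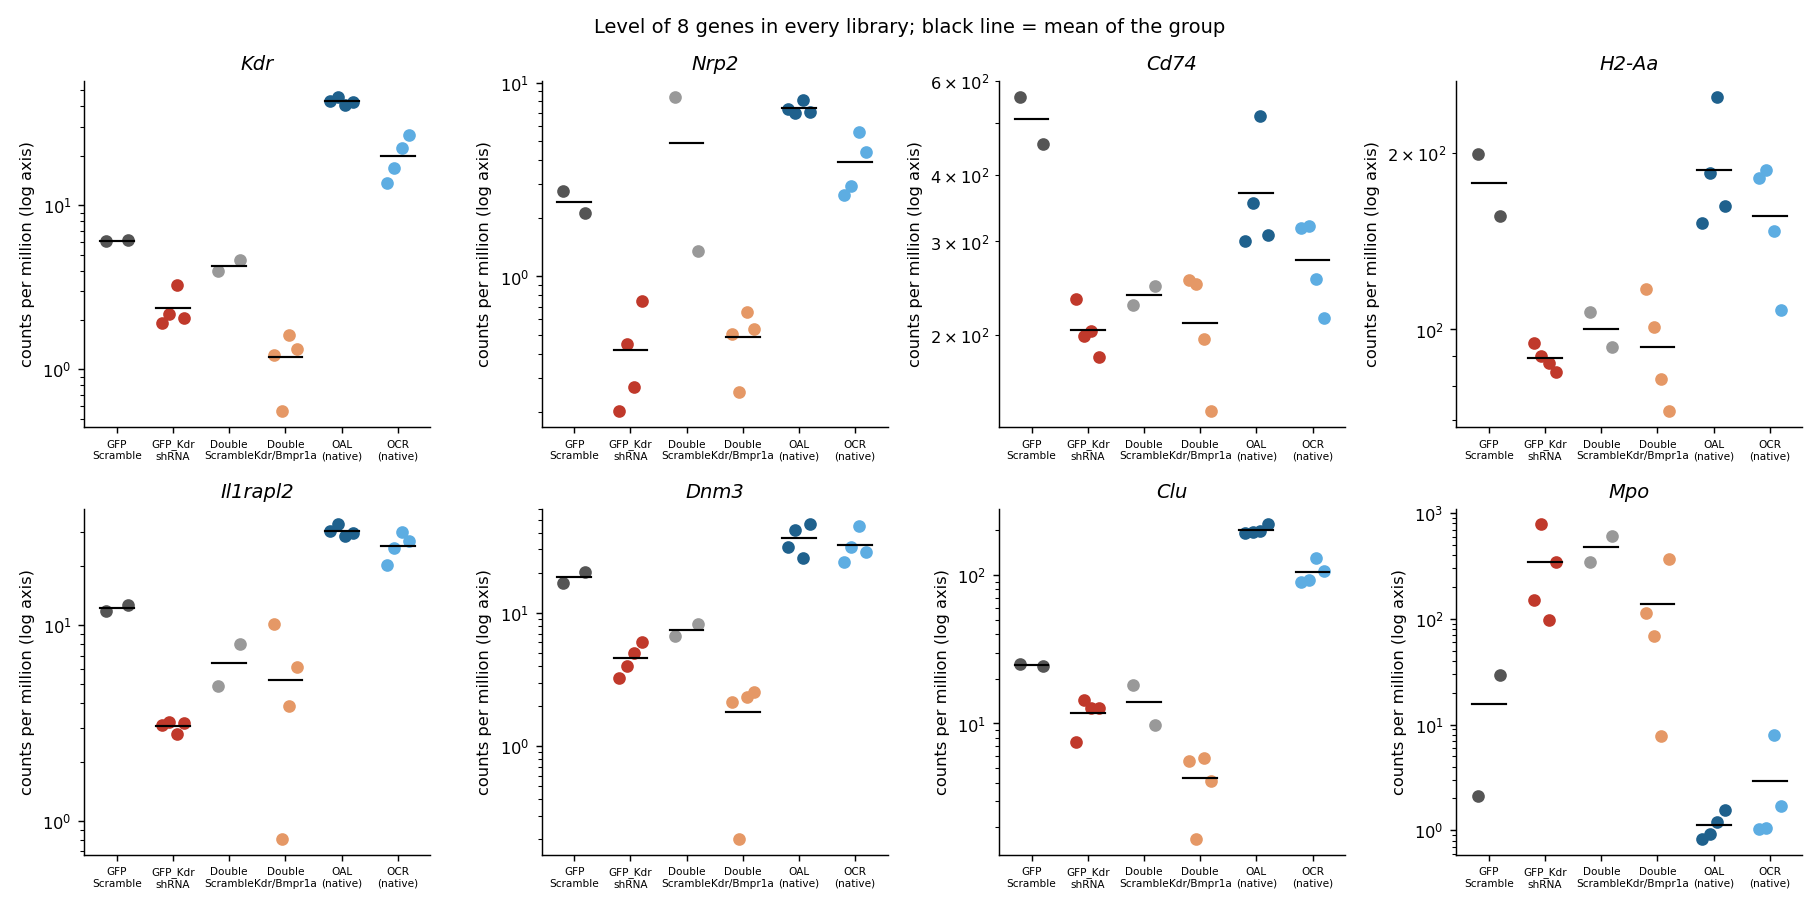
Level of 8 genes in CPM without between-library scaling (y, log axis) by group of libraries (x), 1 point per library and a black line at the group mean, in transplanted cells with the Kdr hairpin, both hairpins or scrambles and in HSCs taken directly from OAL and OCR mice. Kdr lay at 1.92 to 3.28 CPM in the 4 knockdown libraries and above 6 CPM in both scrambles, while Cd74 lay at 182 to 234 CPM against 458 and 561 CPM.

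Among the other VEGF receptors, only the co-receptor Nrp2 passed the unadjusted test. Nrp2 had 2.73 and 2.104 CPM with the scramble and 0.203, 0.458, 0.268 and 0.738 CPM with the Kdr hairpin, without overlap (log2 fold change -2.53, SE 0.485, unadjusted p = 0.000593 and adjusted p = 0.251 with edgeR). It was lower in the double knockdown too, at 0.253 to 0.649 CPM against 8.50 and 1.35 CPM in its scrambles (-3.33, unadjusted p = 0.000918) and in OCR against OAL (-0.97, adjusted p = 0.00151). Flt1, Flt4 and Nrp1 were near 1 CPM or below in most libraries and had log2 fold changes of -0.78, -0.70 and 0.57, none past the test. The first pair turned positive, to 1.01 and 1.76, when GFP_Scramble replicate 1 was left out, and Nrp1 turned to -0.45 without GFP_Kdr_shRNA replicate 2.

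No VEGF ligand passed the test. Vegfa, the ligand of KDR, had a log2 fold change of -0.13, Vegfb -0.24, Vegfc 0.01 and Pgf -1.42. Vegfa was at 9.55 and 11.9 CPM against 8.73 to 10.8 CPM, and the groups overlapped. Vegfd was at or near 0 in all 6 libraries and was not tested. Of 41 tested members of a list of VEGFR2 signalling genes, 2 were lower (4.88%, against 3.78% of all genes) and 0 higher, a share near that of all genes, with a median log2 fold change of 0.0135 against -0.00228 over all genes. The 2 were Pik3r1, the regulatory subunit of PI3 kinase (178 and 206 CPM against 131, 122, 165 and 135 CPM, -0.47), and Prkca, a protein kinase C (-0.50). Of 17 genes known to respond to VEGF only Egr3 passed. It had no reads with the scramble and at most 0.724 CPM with the hairpin, so its fold has no meaning.

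Across 20098 genes tested, the adjusted rule (Benjamini-Hochberg adjusted p below 0.05 and fold change above 1.2, edgeR) called 0 genes higher (0%) and 3 lower (0.0149%). The 3 were Cd74, H2-Aa and Il1rapl2. The study's looser rule, an unadjusted p below 0.05 and the same fold, called 600 genes higher (2.99%) and 759 lower (3.78%). It makes no correction for the number of genes, so counts of list members are read against these shares. In 2130 genes (10.6%) every knockdown library exceeded both scrambles, and in 2263 (11.3%) every one fell below both. Of the genes called by the unadjusted rule, 549 higher and 725 lower ones had groups that did not overlap. The control group is 2 libraries: without GFP_Scramble replicate 2 the unadjusted rule called 785 genes in place of 1359. The adjusted rule called none without GFP_Scramble replicate 1 or 2 or GFP_Kdr_shRNA replicate 3 or 4, 1 without GFP_Kdr_shRNA replicate 1 and 12 without GFP_Kdr_shRNA replicate 2. Below, "rose" and "fell" refer to the unadjusted rule unless the adjusted one is named.

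**Figure D2:**
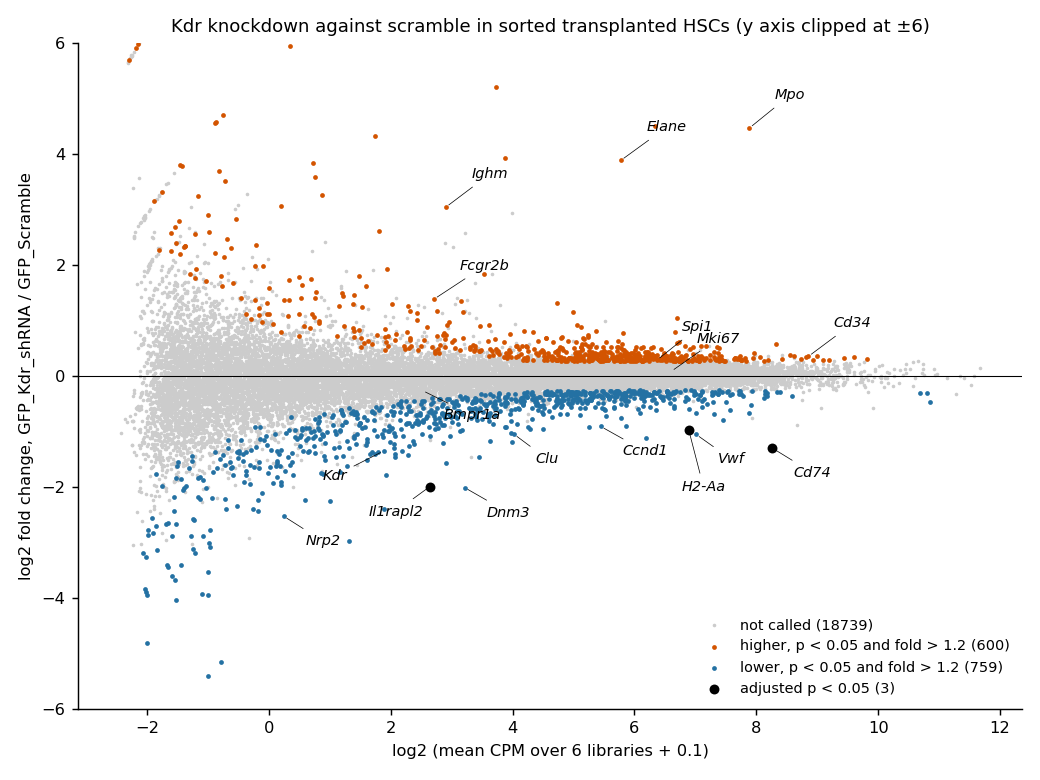
Log2 fold change of Kdr knockdown against scramble (y) by mean log2 CPM over the 6 libraries (x), 1 point per tested gene, with genes called higher or lower by the unadjusted rule in orange or blue and the y axis limited to 6 either way. The 3 genes past the adjusted rule, Cd74, H2-Aa and Il1rapl2, all lie below 0.

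Genes of MHC class II antigen presentation made up 2 of the 3 calls of the adjusted rule. MHC class II molecules are pairs of an alpha and a beta chain that show peptides to CD4 T cells. CD74, the invariant chain, occupies their groove until H2-DM exchanges its remnant for a peptide, and CIITA is the transcriptional co-activator that turns the genes on through conserved X and Y boxes in their promoters. Among 10 tested members of the list, 6 fell and 1 rose.

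Cd74 (chromosome 18, 60803848 to 60812652, plus strand) was at 557 and 456 CPM with the scramble and at 235, 202, 204 and 181 CPM with the Kdr hairpin. The log2 fold change was -1.30 (SE 0.111, adjusted p = 0.0114, edgeR). H2-Aa, the alpha chain of I-A (chromosome 17, 34282744 to 34287823, minus strand), was at 198 and 155 CPM against 95.4, 91.7, 87.7 and 83.9 CPM (-0.98, SE 0.101, adjusted p = 0.0367). Both genes had every knockdown library well below the lower scramble. H2-Ab1, its beta chain, was at 277 and 210 CPM against 148, 156, 128 and 128 CPM (-0.79, SE 0.123, adjusted p = 0.183). H2-Eb1, the beta chain of I-E, was at 132 and 95.6 CPM against 65.0, 45.4, 46.2 and 52.5 CPM (-1.12, SE 0.166, adjusted p = 0.183). For these chains too the groups did not overlap. Ciita itself was at 14.2 and 11.8 CPM against 6.73, 4.80, 7.01 and 7.48 CPM (-0.997, SE 0.203, unadjusted p = 0.000883, edgeR).

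The peptide-loading genes did not move alike. H2-DMb2 fell from 7.56 and 8.54 CPM to between 4.53 and 6.05 CPM (log2 fold change -0.64), whereas H2-DMa (-0.22) and H2-DMb1 (-0.10) were not called. H2-Ob, a chain of the H2-O protein that restrains H2-DM, rose from 24.5 and 18.4 CPM to 29.8, 27.1, 29.3 and 35.9 CPM (0.51, unadjusted p = 0.0105, edgeR). Its partner H2-Oa had a log2 fold change of 0.07 and was not called. Reads of the H2 genes can be shared with close paralogs, so the values of single chains are uncertain to that extent. The list's median log2 fold change was -0.719, and its score, the median over members of log2 CPM minus the mean of the scrambles, lay between -0.835 and -0.514 in the knockdown libraries and at -0.139 and 0.139 in the scrambles. Of 12 MHC class I genes only H2-Q4 fell (-0.35), with a list median of -0.137.

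Promoters of 8 transcripts of 7 class II genes from the RefSeq table (GRCm38.p6) were searched, with none for Cd74, H2-Ab1 and Ciita. The chromosome of Cd74 was left out of this search, so no Cd74 promoter could be found. The 250 bases before each start were searched on both strands for the Y box core TGATTGG and the X box core AACNNATG, which do not overlap where both occur. The stretches below, bases 140 to 21 before the start read in the direction of transcription, are shown because their genes differ in response while 3 of the 4 hold both motifs. Capitals mark the motifs.
H2-Aa: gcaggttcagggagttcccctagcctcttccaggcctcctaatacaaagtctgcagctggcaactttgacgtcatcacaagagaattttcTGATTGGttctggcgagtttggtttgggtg
H2-Eb1: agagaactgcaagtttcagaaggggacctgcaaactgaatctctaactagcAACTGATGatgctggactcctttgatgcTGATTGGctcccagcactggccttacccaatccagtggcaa
H2-DMb1: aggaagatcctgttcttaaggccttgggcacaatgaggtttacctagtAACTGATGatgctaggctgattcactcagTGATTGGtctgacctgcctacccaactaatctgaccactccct
H2-Ob: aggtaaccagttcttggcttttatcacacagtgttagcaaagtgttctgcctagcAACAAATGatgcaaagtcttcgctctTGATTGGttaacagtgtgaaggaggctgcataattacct
These are chr17:34287844-34287963 (minus strand) for H2-Aa, and on the plus strand chr17:34305727-34305846 for H2-Eb1, chr17:34153051-34153170 for H2-DMb1 and chr17:34238765-34238884 for H2-Ob. The Y box core begins 50, 61, 63 and 59 bases before the start in that order, and the X box core 89, 92 and 85 bases before it in H2-Eb1, H2-DMb1 and H2-Ob. Of the 8 promoters 6 held the Y core and 4 held both cores. Among all 32851 promoters searched, without the chromosome of Cd74, 7.23% held the Y core, 7.71% the X core and 0.664% both. H2-Eb1 and H2-DMb2, which fell, H2-DMb1, which was not called, and H2-Ob, which rose, held both cores. H2-Aa, which fell, held only the Y core. Whether these letters bear on the response was not tested. These motifs were chosen after the values were seen.

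The class II levels of the scramble libraries matter for these calls. Cd74 was at 458 and 561 CPM in GFP_Scramble but at 228 to 247 CPM in the scrambles of the double knockdown, at 144 to 254 CPM in the double knockdown and at 301 to 516 CPM in OAL, all without between-library scaling. H2-Aa likewise was at 156 and 199 CPM in GFP_Scramble and at 93.4 to 107 CPM in the other scrambles. In the double knockdown the list's median log2 fold change was 0.109, with 3 members higher and 0 lower, and Cd74 had -0.17. The difference between the Kdr and double knockdown effects had an unadjusted p = 0.000905 for Cd74, 0.00195 for H2-Aa, 0.00186 for H2-Ab1 and 0.00178 for H2-Eb1 (edgeR, 12 libraries), and none passed after adjustment. Of 21250 genes 0 did (0%), with 760 at an unadjusted p below 0.05. With no filter on low counts edgeR called 5, Cd74 among them (log2 difference -1.12, adjusted p = 0.0289), and DESeq2 called 3, which were Prom1, Ighm and Tifab. In a fit of all 12 transplanted libraries the adjusted p of the Kdr effect was 0.0774 for Cd74 and 0.0998 for H2-Aa. It rose to 0.306 for Cd74 when GFP_Scramble replicate 1 was left out.

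**Figure D3:**
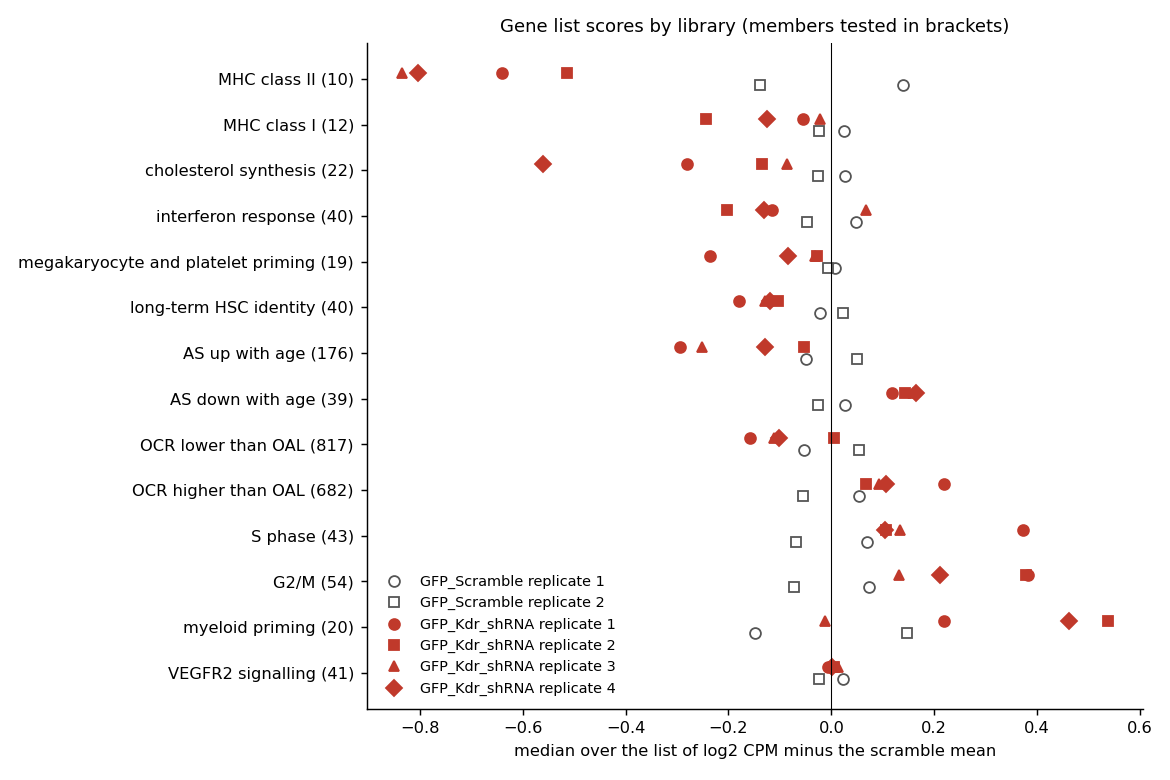
Score of each gene list in each of the 6 libraries, as the median over members of log2 CPM minus the mean of the 2 scrambles, 1 point per library. MHC class II lies between -0.835 and -0.514 in the 4 knockdown libraries, and the G2/M list between 0.132 and 0.383.

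Il1rapl2, the gene with the smallest p, codes for an accessory-like protein of the interleukin-1 receptor family and belongs to the aging signature. It was at 11.9 and 12.7 CPM with the scramble and at 3.12, 3.26, 2.77 and 3.13 CPM with the hairpin (log2 fold change -1.998, SE 0.164, adjusted p = 0.0114, edgeR). The knockdown libraries lay close together, far below both scrambles. As with class II, the scrambles of the double knockdown were lower, at 4.89 to 7.99 CPM, and the double knockdown ranged from 0.810 to 10.2 CPM (-0.30). In the 12-library fit the adjusted p was 0.345. Dnm3, a dynamin GTPase of membrane trafficking, was at 16.7 and 20.2 CPM against 3.25, 4.05, 4.95 and 5.98 CPM (-2.02, SE 0.232, adjusted p = 0.0657). It also fell in the double knockdown (-2.05, edgeR unadjusted p = 0.0165). The scrambles of the double knockdown again were lower than GFP_Scramble, at 6.75 and 8.19 CPM against 16.8 and 20.3 CPM without between-library scaling.

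The other largest decreases by the unadjusted rule, at a mean of at least 5 CPM and without overlap, were the Wnt modulator Sfrp1 (log2 fold change -1.57), the neural cell adhesion molecule Ncam2 (-1.46), Podnl1 (-1.23), Crybg1 (-1.22), Cpxm1 (-1.19), the retinoic acid receptor Rarb (-1.18) and the protocadherin Pcdhga12 (-1.17). Ncam2 was at 21.2 and 16.3 CPM against 4.83, 9.14, 8.30 and 4.88 CPM, and it fell further in the double knockdown (-2.82, edgeR unadjusted p = 0.00349). Rarb was at 15.7 and 23.4 CPM against 7.14 to 9.97 CPM. Crybg1 was at 12.7 and 10.5 CPM against 5.64, 5.89, 5.98 and 2.36 CPM, with 1 knockdown library well below the rest, and had a double knockdown value of 0.25. Genes of the gamma-protocadherin cluster share their last exons, so Pcdhga12 is uncertain.

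**Figure D4:**
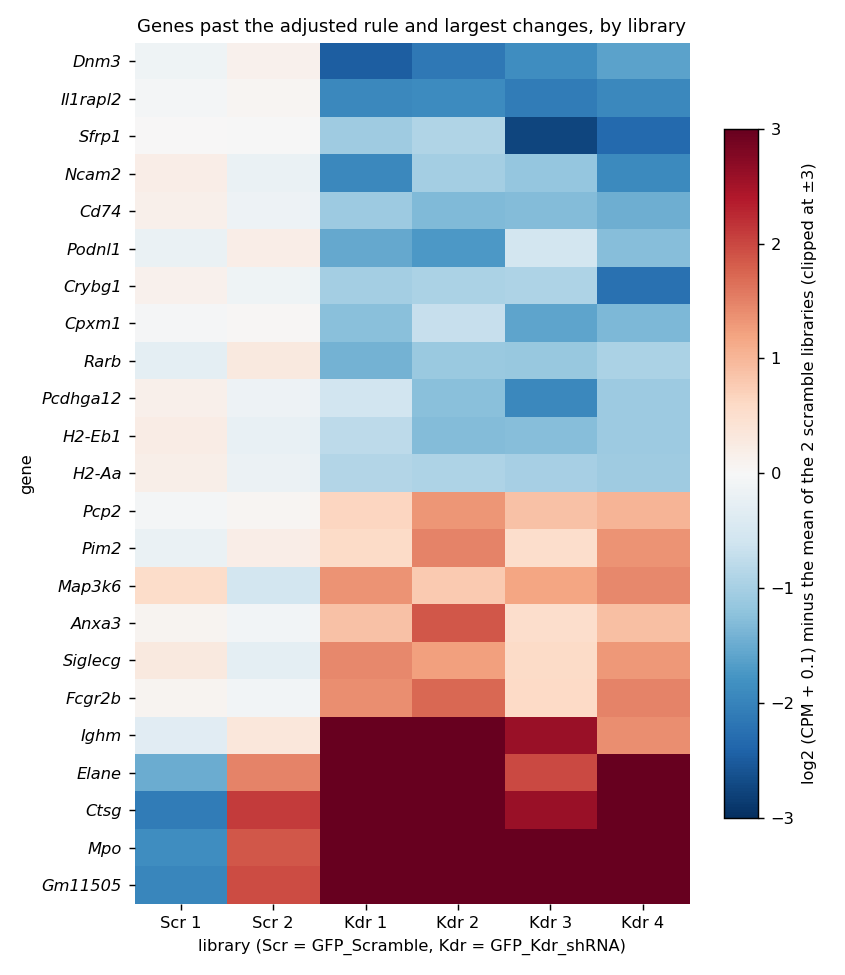
Heat map of log2 (CPM + 0.1) minus the mean of the 2 scrambles (colour, limited to 3 either way) for genes past the adjusted rule and, at a mean of at least 5 CPM without overlap, those with the largest changes by the unadjusted one (rows) in each of the 6 libraries (columns). The scrambles are alike for Il1rapl2, at 11.9 and 12.7 CPM, and differ strongly for granule genes such as Mpo, at 2.095 and 29.1 CPM.

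Of genes without overlap that averaged 5 CPM or more, the largest increases were in myeloid granule genes, whose levels differed widely between libraries. Mpo, the myeloperoxidase of primary granules, was at 2.095 and 29.1 CPM with the scramble and at 151, 795, 97.5 and 344 CPM with the hairpin (log2 fold change 4.46, SE 1.17, unadjusted p = 0.00437, adjusted p = 0.354, edgeR). The groups did not overlap, and as a ratio the scrambles differed from each other by more than the higher scramble and the lowest knockdown library did. The proteases Elane (1.14 and 9.52 against 34.4, 211, 13.5 and 58.7 CPM, 3.88) and Ctsg (3.92) had the same order of libraries, with GFP_Kdr_shRNA replicate 2 highest. With 2 and 112 counts in the scrambles, Ctsg passed the filter on low counts only with the help of the knockdown libraries. Gm11505 (4.50) lies on the opposite strand within Mpo, and since the sources used here do not give the strand setting of the counting, its reads and those of Mpo cannot be told apart. The size of these changes rested on single libraries. Without GFP_Scramble replicate 2 the log2 fold changes of Mpo, Elane, Ctsg and Gm11505 were 7.37, 6.12, 8.55 and 7.72, and over the other left-out libraries their lowest values were 3.58, 2.72, 2.85 and 3.61. Elane (3.07) and Ctsg (2.98) were no longer called without GFP_Scramble replicate 1. The direction was not shared by the double knockdown, where Mpo had -1.78 and its scrambles held 344 and 615 CPM without between-library scaling. OAL libraries held at most 1.54 CPM. Of 20 myeloid priming genes 5 rose and 0 fell, with a median of 0.284 (0.44 without GFP_Kdr_shRNA replicate 3, double knockdown -0.381). The 5 were Mpo, Elane, Ctsg, Ms4a3 (1.83) and Spi1, and the call of Ctsg carries no weight because of how it passed the filter.

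Spi1 encodes PU.1, the transcription factor that directs myeloid and B lineage genes. It was at 73.9 and 70.5 CPM against 74.3, 93.2, 89.7 and 93.8 CPM (log2 fold change 0.28, SE 0.106, unadjusted p = 0.0269, adjusted p = 0.502, edgeR). Every knockdown library exceeded both scrambles, the lowest by less than the scrambles differed from each other. Spi1 also rose in the double knockdown (0.25, unadjusted p = 0.00545) and had 0.13 in OCR against OAL. Spib, a relative of Spi1, was at or near 0 and not tested. Genes that rose had a PU.1 peak within 1 kb of the start in both OCR libraries in 7.87% of cases, genes that fell in 2.91% and all tested genes in 4.31%. In both OWT libraries, as the labels name this group, the shares were 4.69%, 1.85% and 2.93%. Within 50 kb of the start, the OCR shares were 36.2% for genes that rose, 28.2% for genes that fell and 28.1% for all tested genes. Counting only genes that averaged 5 CPM or more, the OCR shares were 9.19%, 3.51% and 6.15% within 1 kb and 38.2%, 29.7% and 31.6% within 50 kb. PU.1 was not mapped in the knockdown cells, so these shares describe where it sits in HSCs taken directly from mice. Spi1 had a peak in all 4 of these libraries and H2-Ab1 in 3, whereas Mpo, Elane, Cd74, H2-Aa and Kdr had no called peak within 1 kb. For Kdr the paper shows PU.1 signal close to the promoter in genome browser tracks, which is a different measure from called peaks in this window.

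Markers of other blood cells were measured beside these genes. For neutrophils, 12 of 12 markers were tested and 0 passed. Their summed level was 360 and 2190 CPM in the scrambles and 778 to 2110 CPM in the knockdown, led by S100a8 and Ngp, and GFP_Scramble replicate 1 was lowest for them as it was for Mpo. For monocytes 2 of 12 rose, Ccr2 (0.265 and 1.27 against 0.457, 11.0, 3.26 and 4.07 CPM) and the lysosomal Cd68 (0.70), and the sum was 53.5 and 71.0 CPM against 71.5 to 124 CPM. For B cells 10 markers were tested, and the sums were 35.1 and 43.5 CPM against 47.0 to 85.1 CPM. Most of that sum was Cd79b at 28.6 and 35.2 CPM against 35.6 to 47.0 CPM, whereas Pax5 and Ms4a1 were too low to be tested. Cd79b (log2 fold change 0.43) and Ighm (0.955 and 1.58 against 12.1, 18.4, 7.88 and 3.38 CPM, 3.04) rose. Cd79a and Igll1 were at most at 0.191 CPM with the scramble and reached 3.71 and 5.38 CPM in GFP_Kdr_shRNA replicate 1. They passed the filter on low counts only through the knockdown libraries, so their calls are not counted. Of the T and NK cell markers only Klrb1c moved (-0.99), of the erythroid, mast cell and stromal markers none. Of 11 endothelial markers Pecam1 rose and Kdr and Vwf fell. The lineage gate of the sort held antibodies against Mac-1 and Gr-1 of myeloid cells and B220 of B cells, and was set to leave out cells that stain for them. Whether other cells in the sort had a part in the myeloid and B cell values was not tested.

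The G2/M list, genes expressed as cells enter mitosis, had 25 of 54 members higher (46.3%, against 2.99% of all genes) and 1 lower, with 48 positive values and a median log2 fold change of 0.278. Those that rose included the spindle and kinetochore genes Tacc3 (69.4 and 77.2 against 97.9, 105, 94.3 and 94.4 CPM, 0.42), Kif20b (0.52), Ckap2l (0.50), Hmmr (0.60) and Ndc80 (0.69), and the kinase Aurka (0.57). Their groups did not overlap. Cks1b, a small subunit that binds cyclin-dependent kinases, fell (-0.67). The best known proliferation genes were not called: Mki67 had 0.08 (97.3 and 89.8 against 100, 85.7, 93.0 and 116 CPM), Cdk1 0.20 and Ccna2 0.18. Without GFP_Scramble replicate 2, 10 members rose in place of 25. The double knockdown had 1 member higher and 2 lower, with a median of 0.00642. Its scrambles held more of these transcripts than GFP_Scramble where compared. Ckap2l was at 96.5 and 78.7 CPM there, against 58.1 and 50.5 CPM in GFP_Scramble and 69.7 to 83.1 CPM with the Kdr hairpin. Hmmr was at 71.2 and 57.0 CPM there, against 33.7 and 35.4 CPM in GFP_Scramble and 42.3 to 61.2 CPM with the Kdr hairpin.

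Of 43 S phase genes 5 rose and 0 fell, with 40 positive values and a median of 0.181, which was 0.0976 without GFP_Kdr_shRNA replicate 1 and 0.119 without GFP_Scramble replicate 2. The 5 were Rrm1 and Rrm2, the subunits of ribonucleotide reductase, the histone mRNA binding protein Slbp, the thymidylate synthase Tyms and cyclin E2 (Ccne2, 52.1 and 49.4 against 95.6, 66.8, 64.6 and 62.3 CPM, log2 fold change 0.51). Mcm5, part of the replicative helicase, had 0.15 and was not called. Of 16 checkpoint and repair genes only the kinase Chek2 rose (56.5 and 54.8 against 71.1, 73.9, 69.0 and 67.7 CPM, 0.34, unadjusted p = 0.00205, edgeR). Chek1 (0.16) and Brca1 (0.26) were not called. Among G1 regulators Cdk2 (0.29) and Myc (0.33) rose, and cyclin D1 moved the other way: Ccnd1 fell from 56.0 and 70.6 to 40.4, 25.1, 35.4 and 33.6 CPM (-0.91, SE 0.173, unadjusted p = 0.000548).

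The long-term HSC list had 7 of 40 members lower and 3 higher, with a median of -0.136. Those that fell were the transcription factor Hlf (336 and 345 against 264, 238, 251 and 307 CPM, log2 fold change -0.36), Fgd5 (-0.57), Mllt3 (-0.54), Msi2 (-0.43), the endothelial protein C receptor Procr (-0.28), Slamf1 (-0.46) and Ly6a (-0.50). The last pair code for CD150 and Sca-1, on which the cells were sorted. Those that rose were Cd48 (5.20 and 4.30 against 7.47, 11.7, 8.12 and 8.39 CPM, 0.91), Cd34 (425 and 359 against 522, 491, 452 and 530 CPM, 0.35) and Gfi1b (0.48). CD48 also was part of the gate, as a protein that sorted cells lack. CD34 is likewise a protein that the HSCs taken directly from mice were sorted to lack. The list thus mixes genes for proteins that HSCs carry with genes for proteins they are sorted to lack. A rise of Cd48 or Cd34 is therefore no rise of HSC identity, and the median of the list does not run in a single direction. The list's median was -0.0812 without GFP_Scramble replicate 2. Of 19 megakaryocyte and platelet genes 4 fell, among them Vwf, the platelet adhesion factor (169 and 226 against 94.7, 111, 101 and 72.2 CPM, -1.06, SE 0.165, adjusted p = 0.183, edgeR), and Clu (-1.05), and the median of the list was -0.0823. That median moved with most libraries, to -0.0107, -0.0266 and -0.126 without GFP_Kdr_shRNA replicates 1, 2 and 3 and to -0.0371 without GFP_Scramble replicate 1. Without between-library scaling, Vwf was at 86.5 to 100 CPM in the scrambles of the double knockdown and at 72.7 to 109 CPM with the Kdr hairpin. Clu was at 18.2 and 9.71 CPM in those scrambles and at 7.47 to 14.4 CPM with the Kdr hairpin. In the double knockdown they were at 24.7 to 71.7 and 1.67 to 5.87 CPM. Lymphoid priming genes had 0 of 16 called.

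The aging signature (AS) is a set of genes that several independent studies found changed in old HSCs. Of 176 tested AS genes that rise with age, 39 fell with the knockdown (22.2%) and 4 rose, and 125 had negative values with a median of -0.145. Kdr is itself 1 of the 39. The others included Il1rapl2, Dnm3, Vwf, Sfrp1, Clu (25.0 and 24.4 against 7.52, 14.6, 12.8 and 12.6 CPM), Jam2 (-0.92), Ramp2 (-1.41) and Cyp26b1 (-1.47). The 4 that rose were Plscr1 (0.52), Plscr2 (0.53), Kcnip3 (0.43) and Muc13 (0.27). Of 39 AS genes that decline with age 9 rose and 1, Plxdc2, fell, with a median of 0.127. The galectin Lgals1 (25.8 and 29.1 against 45.8, 48.0, 39.3 and 59.7 CPM, 0.81) was among those that rose. Without GFP_Scramble replicate 2 the counts were 19 in place of 39 and 5 in place of 9, with medians of -0.08 and 0.0704. Without GFP_Scramble replicate 1 the first median was -0.226, and in the 12-library fit 18 genes in place of 39 fell.

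In the double knockdown, against its own scrambles, 34 AS genes that rise with age fell and 7 rose, with a median of -0.30. Of 173 measured in both comparisons 108 were negative in both. The number called lower in both was 18, which is 47.4% of those in the Kdr knockdown and 52.9% of those in the double knockdown. Among AS genes that decline with age, 5 were called higher in both, 55.6% and 50% of the calls. The comparisons share no libraries, and both used the Kdr hairpin.

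**Figure D5:**
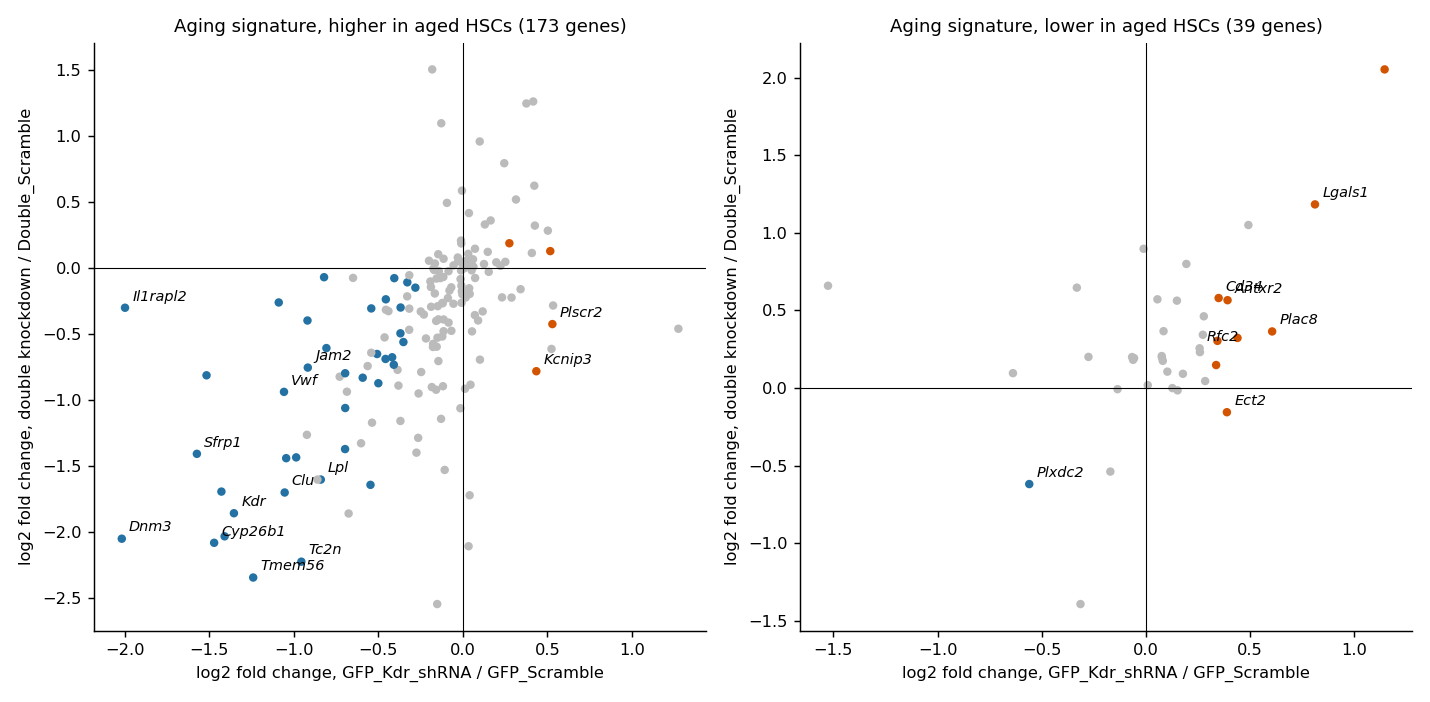
Log2 fold change of the double knockdown (y) by that of the Kdr knockdown (x), each against its own scramble, 1 point per aging signature gene, with genes that rise with age on the left, genes that decline with age on the right and genes called higher or lower in the Kdr knockdown in orange or blue. Of 173 genes that rise with age 108 lie below 0 on both axes.

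The same comparison over all genes called by the Kdr knockdown gave the double knockdown's direction for most of them. The double knockdown called 567 genes higher (2.82%) and 779 lower (3.88%) by the unadjusted rule, and by the adjusted rule 1 (0.00498%), the membrane protein Tmem164. Of the 600 genes that rose, 457 of 581 measured (78.7%) had positive values there, against 49.9% of all genes. Of the 759 that fell, 609 of 738 (82.5%) had negative ones, against 50.1% of all genes. Called in both were 101 higher genes (17.4% and 18.6% of the lists) and 203 lower genes (27.5% and 27% of the lists), against 7 called in opposite directions each way. Shared lower genes included Dnm3, Ncam2, Podnl1, Clu, Plk2 (-0.92, a p53 target kinase), Jam2, Ccnd1 and Myo6, and shared higher genes Fcgr2b (3.31 and 2.92 against 8.30, 10.4, 4.78 and 8.95 CPM, log2 fold change 1.38), Pim2, Lgals1, Cd68, Pecam1 (0.52) and H2-Ob. Bmpr1a, targeted only in the double knockdown, was at 8.30 and 4.38 CPM against 1.68, 3.74, 7.97 and 7.68 CPM in the single knockdown (-0.26, unadjusted p = 0.639, edgeR), with overlap. Its direction turned without GFP_Scramble replicate 1 (0.27) and without GFP_Kdr_shRNA replicate 1 (0.03).

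Lifelong restriction was compared through the genes that differed between OCR and OAL, 689 higher (2.54%) and 822 lower (3.03%) by the adjusted rule. Of 682 tested genes higher in OCR, 114 rose with the Kdr hairpin (16.7%) and 25 fell, with a median of 0.126. Of 817 lower in OCR, 112 fell (13.7%) and 21 rose, with a median of -0.0924, and Kdr is 1 of them. The higher list holds many cell division genes, among them all 25 G2/M genes that rose here. Without its G2/M and S phase members, 84 of 597 rose and 24 fell, with a median of 0.105. With the smallest unadjusted p among members that moved in the direction of their list, Oip5 (19.4 and 17.9 against 30.0, 29.1, 25.9 and 28.3 CPM, log2 fold change 0.60), Esco2 (0.58) and Kif20b rose in the first list, and Myo6 (34.7 and 32.3 against 20.0, 19.3, 15.3 and 14.1 CPM, -0.97) and Fam174a (-0.72) fell in the second. Without GFP_Scramble replicate 2 the counts were 41 in place of 114 and 54 in place of 112, with medians of 0.0652 and -0.0198, and without GFP_Scramble replicate 1 the median over the higher list was 0.19. The double knockdown's median over the higher list was 0.0106, and over the lower list -0.0919. Of all genes that rose with the Kdr hairpin 57% had positive values in OCR against OAL, and of those that fell 66.4% had negative ones, against 53.5% and 46.5% of all genes.

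Several metabolic and signalling lists held small sets of called genes, to be read against 2.99% of all genes called higher and 3.78% called lower. Of 22 cholesterol synthesis genes 5 fell and 0 rose (among the former Insig1 -0.59, Mvk -0.50, Cyp51 -0.36, Stard4 -0.35), with 19 negative values and a median log2 fold change of -0.223. The double knockdown also had 5 lower and a median of -0.259, whereas OCR against OAL had 0.276. Shmt2, the mitochondrial serine hydroxymethyltransferase, was at 156 and 151 CPM against 105, 109, 95.8 and 95.2 CPM (-0.60, SE 0.0793, adjusted p = 0.13, edgeR) and fell by 0.67 on the log2 scale in the double knockdown. Of 19 genes in the unfolded protein response and Atf4 list 2 fell and 0 rose, with 11 positive values and a median of 0.0725. Its member Asns was higher without overlap (0.26) but not called. Of 40 interferon response genes 5 fell (among them Gbp4 -0.90, Iigp1 -0.61, Igtp -0.33, Mx1 -1.36) and 2 rose (Usp18 and Xaf1), with a median of -0.101. In the double knockdown the interferon list had a median of 0.0322, with 26 positive and 14 negative values. The heat shock chaperones Dnaja1, Dnajb1 and Chordc1 rose among 19 tested, by 0.27 to 0.35, and the list had 13 positive and 6 negative values. The double knockdown went the other way, with 3 positive and 17 negative values and a median of -0.122. In the BMP and TGF-beta list only Acvr1 fell (-0.63) of 21, a share of 4.76% that is near that of all genes. The ligand Bmp4 was not called (-0.64). In the Notch list Notch3 fell (-1.09) and Lfng rose (0.38) of 13.

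The genes that changed were mostly protein coding, 87.5% of those that rose and 85.1% of those that fell, against 67.8% of all tested. Their mean levels differed, with a median of 35.7 CPM for genes that rose and 11.2 CPM for genes that fell against 12.1 CPM for all. At their promoters in OCR HSCs, the median H3K4me3 signal, a mark of active promoters, was 22.8 for genes that rose and 23.3 for genes that fell against 26.9 for all with a value. The median H3K27me3 signal, the Polycomb mark, was 0.234 and 0.278 against 0.208. Counting only genes that averaged 5 CPM or more, H3K4me3 was 25.7 and 27.8 against 30.5. H3K27me3 was then 0.209 and 0.219 against 0.183, so genes that rose and genes that fell were closer to each other. Kdr had 23.7 of H3K4me3 and 1.77 of H3K27me3, and Nrp2 18.4 and 4.53. These marks were taken from HSCs of restricted mice, with 2 libraries each, and say nothing of their state in the knockdown cells.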

How the data were processed

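RNA-seq of transplanted mouse HSCs was analysed from the tables the authors deposited, with no reads. For RNA these are raw counts per gene, 1 table a library, for which the submitters' processing notes name cutadapt, STAR, featureCounts and mm10. Total counts per library lay between 37490254 and 44780217. Of 55376 genes in the files, those passing filterByExpr were scaled with TMM factors and tested by quasi-likelihood (glmQLFit, glmQLFTest) in edgeR 4.0.16 under R 4.3.3, on the 6 libraries of the comparison only. The double knockdown and OCR against OAL were fitted on their own libraries, and the difference of knockdowns on 12. Fitted log2 fold changes have SEs equal to the absolute value divided by the square root of F. CPM in the text are scaled by TMM unless stated otherwise. The principal components used log2 CPM with a prior count of 2. The sums of list members use all listed genes.

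The 36 gene lists, the calls of OCR against OAL and the AS names (from the study's supplementary tables, names only) served as lists. Members and lists were chosen with earlier results of these data known, and they carry no test. Named genes were Kdr and the VEGF ligands and receptors, genes the paper names, 12 genes each way at a mean of at least 5 CPM without overlap (those past the adjusted rule, then the largest changes by the unadjusted rule), up to 4 members a list by unadjusted p at a mean of at least 1 CPM, and a few sex-linked genes. Any further gene in the text was picked with its values in view, and a few genes that the rule names are not reported here.

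For PU.1 ChIP-seq the authors deposited MACS2 peaks per library, with a fold ratio over background and −log10 p- and q-values, and a gene was counted where a peak lay within 1 kb of a start in both libraries. The labels and file names give different antibodies for the replicates. For H3K4me3 and H3K27me3 the deposited signal is a mean per base over a promoter window, and the study's methods state that histone libraries were scaled to a common number of reads, without saying whether these tables come from the scaled files. Replicate pairs were compared by chi-square over genes with at least 10 counts. Its value per degree of freedom was 11.5 for the scrambles and 14 to 36 for the knockdown, so no pair differed by counting noise alone. Alternatives were DESeq2 1.42.0, its size factors, other filters, a replicate block, 1 fit of 12 libraries and leaving out each library. The alternative of list members at a mean of at least 1 CPM was chosen after seeing the data.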

Additional observations from a re-analysis of the deposited data

Results flagged for a closer look

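In groups of 4, a gap of one library to its nearest neighbour above Dixon's critical share of the group's range was taken as standing apart, over 167 genes and 38 lists. Chance marks about 1 in 20 groups, and 13 were marked. GFP_Kdr_shRNA replicate 4 was lowest for Asns (0.964 of the range, 56.1 against 67.0 to 67.5 CPM), Col1a2 (0.876, 1.07 CPM), Crybg1 (0.936, 2.36 CPM) and Insig1 (0.857, 25.4 against 41.5 to 45.0 CPM). GFP_Kdr_shRNA replicate 1 was highest for Ccne2 (0.838, 95.6 CPM), Rrm1 (0.831, 408 CPM) and the S phase list (0.895, score 0.372 against 0.105 to 0.133) and lowest for Pdgfrb (0.856) and Rcan1 (0.868). GFP_Kdr_shRNA replicate 3 was lowest for Cd52 (0.875, 5.67 against 16.1 to 18.7 CPM) and the neutrophil markers (0.931, score -0.741 against 0.654 to 0.757), and highest for the VEGF receptor list (0.847, score -0.32 against -1.63 to -1.43). GFP_Kdr_shRNA replicate 2 was highest for Jun (0.897, 27.1 against 13.8 to 14.8 CPM).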

How the results depend on the processing

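With 2 control libraries, counts of calls moved more than fold changes. The 3 genes past the adjusted rule became 303 with DESeq2, 82 with no filter on low counts, 5 at 10 or more counts in every library, 26 with a replicate block and 0 in the fit of 12 libraries, and 0 to 12 with 1 library left out. The 1359 unadjusted calls became 2049 with the block and 785 to 1522 with 1 library left out. The replicate numbers share only a number (correlation of deviations 0.0143 and 0.187 for numbers 1 and 2), and with the replicate block the medians were 0.411 for G2/M, -0.177 for long-term HSC genes and -1.55 for VEGF receptors, 174 OCR-higher genes rose, and Mki67 (-0.01233) and Vegfc (-0.09235) turned direction. The B cell median was 0.721 at 10 or more counts in every library. In the fit of 12 libraries 18 AS genes that rise with age fell. The double knockdown's single adjusted call became 332 with DESeq2 and 19 with no filter, and the difference of knockdowns 3 and 5. The cause was not tested.

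With 1 library left out, ranges were 0 to 1 for the double knockdown's calls, 0.0704 to 0.167 for the AS median of genes that decline with age and 5 to 11 for its higher members, 19 to 52 for lower AS members that rise with age, 10 to 27 for G2/M, -0.177 to -0.0812 for long-term HSC genes, 41 to 139 and 54 to 152 for the OCR-higher and OCR-lower members, -0.127 to -0.0198 for the median of the latter, and -1.56 to 0.109 for VEGF receptors, positive without GFP_Scramble replicate 1. Genes whose direction turned ranged from -0.655 to 0.272 (Bmpr1a, also 0.03), -1.597 to 1.01 (Flt1), -1.564 to 1.76 (Flt4), -0.009289 to 0.1395 (Mki67), -0.448 to 1.286 (Nrp1), -0.2768 to 0.03737 (Vegfa) and -0.05983 to 0.06066 (Vegfc). The log2 fold change of Kdr stayed between -1.55 and -1.27. Of 533 values of 45 named genes, 497 kept direction and side of the threshold, 19 lost the call, 7 gained one and 10 turned. Where an arm was left with 1 scramble, its spread was assumed to be that of the knockdown libraries.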
